A study of Mus musculus with 18 samples.

Results

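PS473 is a synthetic pistol ribozyme designed to cut the mRNA of mouse PD-L1. The comparison was between the 9 of 18 B16F10 tumors that received PS473 in any form and the 9 that received none. The 9 tumors with PS473 were chosen by treatment label and no measured value was used: 3 received Free PS473, 3 received PS473@CPs (PS473 on cationic polymers) and 3 received PS473@NKMOF-101-[Mn] (PS473 inside a manganese and squaric acid framework). The 9 tumors without it were 3 given PBS, 3 given the empty framework NKMOF-101-[Mn] and 3 given M5@NKMOF-101-[Mn], in which the framework held the inactive ribozyme M5. All 18 tumors came from the mouse melanoma line B16F10, grown under the skin of female C57BL/6 mice from 100000 injected cells by the labels (the study's methods give a larger number) and injected intratumorally every 2 days from day 6, at about 50 mm3. The sources used here do not give the time at which tumors were taken for sequencing. The animals' age is not given there, and no genetic change is named. The titles of the PS473 framework tumors spell the carrier NKMOF-102-[Mn], whereas the treatment text has NKMOF-101-[Mn] for every framework group. Carrier and ribozyme were only partly balanced, because 6 of the 9 tumors without PS473 but 3 of the 9 with it received the framework, and CPs were given only with PS473.

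Pistol ribozymes are small self-cleaving RNAs. The study engineered forms that cut a separate RNA strand at a set position, and their pairing arms can be rewritten to choose the target. PD-L1, encoded by Cd274, is a surface ligand that restrains T cells through PD-1, and interferon gamma is a main inducer of it in melanoma cells. RNA and manganese ions can each reach innate sensors that lead to type I interferon, so interferon-stimulated genes were read beside the target.

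The sequences of both ribozymes and of the site are shown because PS473 defines the 9 tumors and M5 was its inactive control in 3 of the others. PS473 is shown as listed under that name, in its first, shorter design. The study later gave the same name to an optimized form with a longer arm, so the RNA in the tumors may have been longer than the sequence shown. Capitals mark the 2 arms of this listed form that pair with the mRNA, the bases changed in M5, and the bases on each side of the cut in the target.
PS473: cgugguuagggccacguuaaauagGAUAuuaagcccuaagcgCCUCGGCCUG
M5: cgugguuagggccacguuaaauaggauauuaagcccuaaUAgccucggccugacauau
PD-L1 target site: caggccgaggGUuauc
Counted from 1 at the 5′ end, M5 differed from the listed form of PS473 at G40U and C41A and carried 6 more bases at its 3′ end, a difference in arm that may not hold against the optimized form. The target was found 1 time in the 873-base coding sequence, and the G before the cut was base 473. In the GENCODE annotation of GRCm38 the site lay on the plus strand at chr19:29380372-29380387, inside coding exon 4 of the 7 exons of Cd274.

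RNA was enriched by oligo(dT) and values were deposited as FPKM, fragments scaled to gene length and to sequencing depth. Recovered fragment totals were 20106000 to 28401000 in the PS473 tumors (median 21149000) and 17212000 to 22230000 in the others (median 19808000), so that the PS473 tumors were on the whole more deeply sequenced. The 7 melanocyte markers that define B16F10 tissue (Tyr, Tyrp1, Dct, Pmel, Mlana, Mitf and Sox10) summed to 4835 to 6949 FPKM with PS473 and 5212 to 7645 FPKM without it, and none was at 0. No pair of tumors held identical values. The labels do not say that the tumors of a group came from separate mice, so p-values measure only the spread between these samples.

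The target transcript did not separate the tumors. Cd274 was 9.74 FPKM in the lowest PS473 tumor, 12.6 FPKM in the median one and 32.9 FPKM in the highest, against 12.3, 15.9 and 28.2 FPKM without PS473. The ranges overlapped, with 4 PS473 tumors below the lowest of the others and 1 above the highest. The mean was 16.3 ± 7.61 FPKM with PS473 and 18.3 ± 5.09 FPKM without it (SD, n = 9 each). The difference in mean log2(FPKM + 1) was -0.22, with p = 0.325 in a two-sided exact permutation test over 48620 regroupings. When tumors were permuted only within the same carrier, leaving out the CPs tumors, it was -0.18 with an exact permutation p of 0.457. The interval of the limma difference, -0.64 to 0.20 on the log2 scale, was compatible with a lower level by a modest factor and with no difference.

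By group, Cd274 was 12.3, 11.7 and 14.0 FPKM with Free PS473, beside 21.5, 15.7 and 12.3 FPKM with PBS. It was 17.0, 32.9 and 9.74 FPKM with PS473@NKMOF-101-[Mn], beside 14.1, 14.6 and 15.9 FPKM with the empty framework and 21.8, 21.0 and 28.2 FPKM with M5. PS473@CPs tumors measured 11.9, 12.6 and 24.5 FPKM. The PS473@NKMOF-101-[Mn] group thus held both the highest and the lowest of the 18 tumors, and the M5 group was the only one with all 3 tumors above 20 FPKM. Without PS473@NKMOF-101-[Mn] 2 the 9-tumor difference was -0.35 (exact permutation p = 0.0724), without M5@NKMOF-101-[Mn] 3 it was -0.14 (exact permutation p = 0.526) and without PS473@NKMOF-101-[Mn] 3 it was -0.15 (exact permutation p = 0.509).

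**Figure D1:**
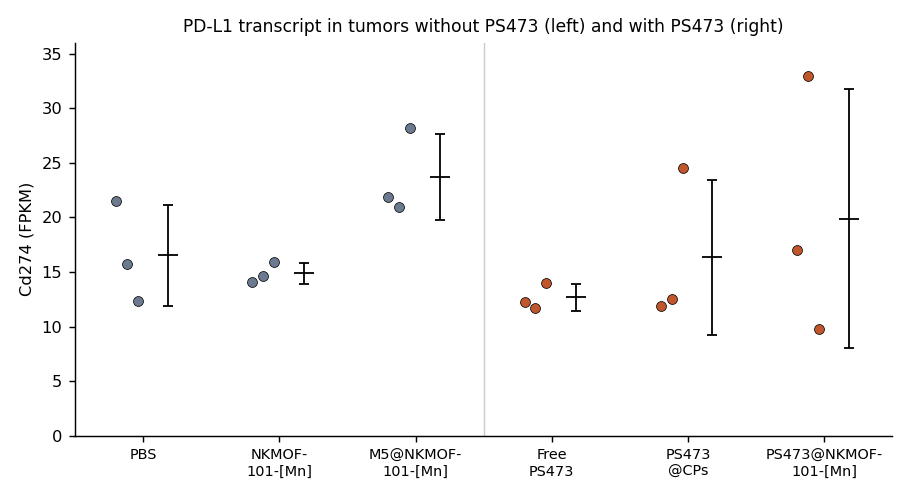
Cd274 in FPKM (vertical axis) for each of the 18 tumors, by treatment group, tumors without PS473 in grey on the left and with PS473 in orange on the right; points are tumors and bars are the group mean ± SD of 3. The 9 PS473 tumors spread from 9.74 to 32.9 FPKM and overlap the 12.3 to 28.2 FPKM of the others.

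Across the transcriptome, no gene was called. Among 12357 genes whose mean over the 18 tumors reached 1 FPKM, limma gave 0 genes at an adjusted p under 0.05 (0% of those tested), with a smallest adjusted p of 1.0 after rounding. At an unadjusted p under 0.05 there were 102 higher (0.825%) and 125 lower genes (1.01%), or 1.84% in all. That split changed to 133 higher and 102 lower genes after quantile normalization, and to 137 and 82 after upper-quartile scaling. On the log2(FPKM + 1) scale, the 95% interval of the difference lay within 2-fold in either direction for 11930 genes (96.5%). It lay within 1.5-fold for 11129 genes (90.1%). The pseudocount of 1 shrinks differences of low genes, so these bounds do not hold for their FPKM itself. Only 16 genes differed by more than 2-fold on that scale. They were keratins and other epidermal genes, globins, S100a8, Arg1, Gm49428, Gm4786 and the mitochondrial tRNA gene TrnK. No gene had its 9 PS473 tumors all above or all below the other 9 (0% in each direction). The nearest were genes with 7 of 9 tumors beyond the others, among them Tymp and Mbp above and Nkap below.

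Most of the 20 genes named for the smallest p, 10 in each direction, had small differences, and Gm4786, Gm25820 and Gm22589 had larger ones. Rpusd3, a mitochondrial pseudouridine synthase, was 5.43, 6.05 and 7.53 FPKM in the lowest, median and highest PS473 tumor, against 3.52, 5.14 and 6.18 FPKM. All 9 PS473 tumors were above the median of the others although the ranges overlapped, and the log2 difference was 0.24 ± 0.07 (SE). Tymp, thymidine phosphorylase, measured 6.76, 7.33 and 7.87 FPKM against 6.18, 6.64 and 6.93 FPKM, so that 7 PS473 tumors exceeded every other tumor for a log2 difference of only 0.11 ± 0.04. The other 8 higher genes had log2 differences of 0.16 to 0.55. They were Gcdh (glutaryl-CoA dehydrogenase), Dok5 (an adaptor of receptor tyrosine kinases), Ogfod2, the small nucleolar RNA Snora26, Ddx49 (a DEAD-box RNA helicase), Nicol1, Dcxr (a carbonyl and xylulose reductase) and Vps37b (a subunit of the ESCRT-I sorting complex). Nicol1 ran from 0.985 to 2.17 FPKM with PS473 and from 0.161 to 1.60 FPKM without it. Its mean without PS473 was under 1 FPKM, so it passed the filter only through the PS473 tumors and gives no support.

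Among lower genes, the predicted gene Gm4786 was 5.07, 7.04 and 22.1 FPKM with PS473 and 6.93, 21.5 and 26.3 FPKM without it. Only 1 PS473 tumor lay above the median of the others, and the log2 difference was -1.08 ± 0.28. P4ha1, a subunit of the collagen prolyl hydroxylase, measured 16.0, 18.5 and 21.0 FPKM against 19.7, 22.3 and 23.9 FPKM, and its log2 difference was -0.20 ± 0.06. Psap, the precursor of the lysosomal saposins, measured 166, 195 and 257 FPKM against 175, 240 and 278 FPKM, with a difference of -0.26 ± 0.09. The rest were Osbpl8 (lipid transfer at membrane contacts), the GTPase Rab8b, Zfyve16 (an endosomal FYVE protein), Nkap, the transcription factor Cebpg and the short predicted genes Gm25820 and Gm22589, at log2 differences of -0.14 to -0.88. None of the 20 passed adjustment in limma. Snora26, Gm25820 and Gm22589 have lengths of 121, 128 and 77 bases, so their FPKM rest on few fragments.

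**Figure D2:**
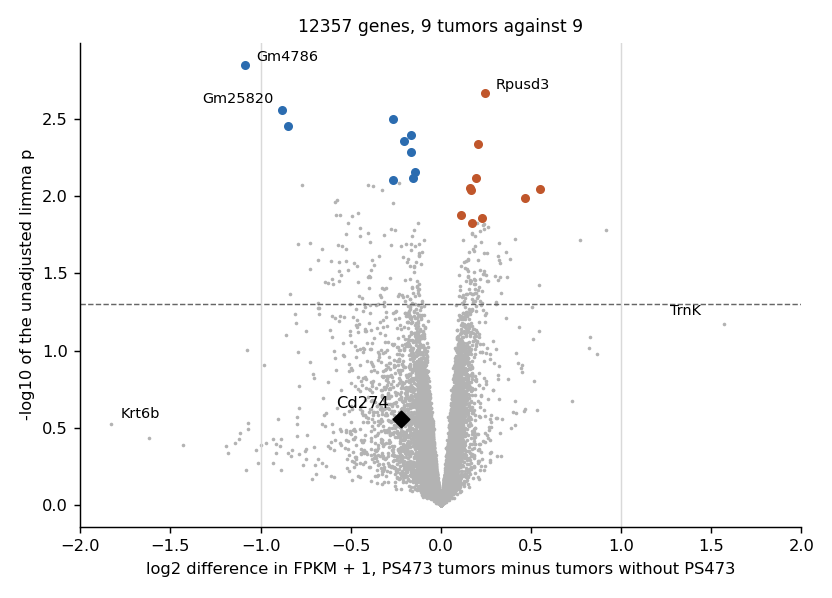
Each of 12357 genes by its log2 difference between PS473 tumors and tumors without PS473 (horizontal axis) and by -log10 of its unadjusted limma p from a fit across all genes (vertical axis); orange and blue points are the 10 genes with the smallest p in each direction, the black diamond is Cd274, the dashed line marks the unadjusted threshold of 0.05 and the grey lines are 2-fold. Genes past 2-fold, such as Krt6b and TrnK, mostly lie under the dashed line, and no gene passes adjustment.

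Adding carrier as a term, which sets Free PS473 against PBS and PS473@NKMOF-101-[Mn] against the framework tumors without PS473, also called 0 genes (0%), with 96 higher (0.777%) and 90 lower (0.728%) at an unadjusted p under 0.05, 1.51% in all. After quantile normalization these were 187 and 61, and after upper-quartile scaling 192 and 71. Dok5, Tymp and Dcxr stayed among the 5 higher genes with the smallest p, now with Mtmr14 (a phosphoinositide phosphatase) and Mterf4 (a mitochondrial ribosome assembly factor), at log2 differences of 0.14 to 0.27. The lower genes were Gm4786, the short RNA genes Gm23639 and Mir705, and the leukocyte genes Cd48 and Rgs1. Mir705 averaged just under 1 FPKM with PS473 and passed the filter through the other tumors. Cd48, a surface protein of leukocytes, was 0.652, 1.62 and 2.88 FPKM with PS473 and 1.55, 2.35 and 4.13 FPKM without it, with 4 PS473 tumors below all others and a difference of -0.55 ± 0.18 within carriers. Rgs1, a regulator of G protein signalling in immune cells, was 0.547, 2.79 and 9.35 FPKM against 2.82, 3.55 and 5.84 FPKM, with 6 PS473 tumors below all others and 1 above them.

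Interferon-stimulated genes showed no common shift over the 9 tumors, while their differences had opposite signs with and without the framework. Of 48 tested genes of this list, 10 were higher and 38 lower with PS473, none at an unadjusted p under 0.05, and the median log2 difference was -0.06, beside -0.006 for all genes tested. Free PS473 minus PBS gave 0 higher and 48 lower genes with a median of -0.47. PS473@NKMOF-101-[Mn] minus the 6 framework tumors without PS473 gave 46 higher genes and a median of 0.26, and these 2 contrasts share no tumor. PS473@CPs minus PBS, which shares the PBS tumors with the first, gave 43 higher genes and a median of 0.24. The framework contrast pools 2 controls that differed. The mean log2(FPKM + 1) of the list was 3.11 with the empty framework, 3.42 with M5 and 3.52 with PS473@NKMOF-101-[Mn], so the framework difference was smaller against M5. Over all genes tested these 3 contrasts called 0 genes at an adjusted p under 0.05 in limma. At an unadjusted p under 0.05, 1.81% of genes passed with Free PS473 (1.26% higher and 0.55% lower), 0.785% in the framework (0.202% and 0.583%) and 2.09% with CPs (0.898% and 1.19%). Of all genes tested, 51.8% had the same sign in the 2 contrasts that share no tumor, against 4.17% (2 of 48) here. A low share was not particular to this list. It was 15.4% for mitochondrially encoded, 18.2% for unfolded protein and 20% for melanocyte genes, whereas skin genes had 93.5%.

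The difference between those 2 contrasts was tested gene by gene and called 0 genes (0%), with 36 higher (0.291%) and 133 lower (1.08%) at an unadjusted p under 0.05, 1.37% in all. Quantile normalization gave 56 and 103, and upper-quartile scaling 73 and 79. Of the 48 interferon-stimulated genes, 9 passed the unadjusted threshold. The gene with the smallest p on the higher side was Ifitm3, which restricts virus entry at endosomes. It was 127, 103 and 176 FPKM with Free PS473 beside 312, 198 and 192 FPKM with PBS, and these groups did not overlap. In the framework it was 264, 467 and 248 FPKM with PS473, beside 193 to 336 FPKM over the 6 tumors without it, and the ranges overlapped. The difference of the differences was 1.06 on the log2 scale with an unadjusted limma p of 0.00766. Apol9a and Apol9b, near-identical neighbours whose reads may not be separable, came next with Rapgef5 and Gm42067. On the lower side were Slc7a7 (a cationic amino acid transporter subunit), Gm16617, Gm41291, Arhgef40 and Ulbp1 (a ligand of NKG2D), at log2 differences of -0.44 to -0.77.

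The framework side of this pattern rested on 1 tumor. Without PS473@NKMOF-101-[Mn] 2, the framework median of the interferon-stimulated list was -0.13 with 8 of 48 genes higher, and 1 of 48 genes passed the unadjusted threshold for the difference. The Free PS473 median ranged from -0.62 (without Free PS473 3) to -0.29 (without Free PS473 2) when 1 tumor was left out. Without Free PS473 2, 1 of 48 genes passed for the difference, and without PS473@NKMOF-101-[Mn] 3 33 did. Over all 12357 genes, 151 were higher for the difference in the last of these fits. The CPs median was -0.05 without PS473@CPs 3. The 9-tumor median itself was -0.19 without PS473@NKMOF-101-[Mn] 2 and 0.04 without PS473@NKMOF-101-[Mn] 3. Zbp1, a sensor of Z-form nucleic acids that is itself induced by interferon, is an example. It was 1.35, 2.25 and 9.12 FPKM with Free PS473 and 12.4, 6.87 and 7.78 FPKM with PBS. With PS473@NKMOF-101-[Mn] it was 13.0, 42.7 and 9.51 FPKM. It was 11.7, 7.70 and 12.9 FPKM with the empty framework and 16.2, 15.0 and 15.4 FPKM with M5. The PS473 framework tumors other than the highest were thus below every M5 tumor. The value of 42.7 FPKM was that of PS473@NKMOF-101-[Mn] 2, and the 9-tumor log2 difference was -0.29 ± 0.35.

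The interferon gamma-induced guanylate-binding proteins and immunity-related GTPases, which attack vacuoles that hold pathogens, showed a similar arrangement with larger values. All 17 tested members were lower over the 9 tumors, none at an unadjusted p under 0.05, with a median of -0.29. The median was -0.97 with Free PS473, 0.28 in the framework and 0.31 with CPs, and 0 of 17 had the same sign without carrier and in the framework. The mean log2(FPKM + 1) of the list was 3.66 with the empty framework, 4.07 with M5 and 4.12 with PS473@NKMOF-101-[Mn]. Without PS473@NKMOF-101-[Mn] 2 the framework median was -0.29 with 0 of 17 higher and the 9-tumor median was -0.48. Without PS473@NKMOF-101-[Mn] 3 the 9-tumor median was -0.17 and the framework median 0.70, and without PS473@CPs 3 the CPs median was -0.03. Gbp4 was 0.940, 2.00 and 4.99 FPKM with Free PS473, below the 7.17, 5.27 and 6.64 FPKM of PBS in every tumor. It was 8.31, 32.8 and 3.19 FPKM with PS473@NKMOF-101-[Mn], a range that enclosed the framework tumors without PS473. Gbp6, Gbp7 and Irgm2 had 9-tumor log2 differences of -0.33 to -0.38. The OAS enzymes and RNase L, which degrade RNA after double-stranded RNA is sensed, had medians of -0.01, -0.32 and 0.28 over the 9 tumors, without carrier and in the framework (11 genes). Reads of the GBP, OAS and MHC families can be shared between close copies, and how the authors split them is not stated.

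**Figure D3:**
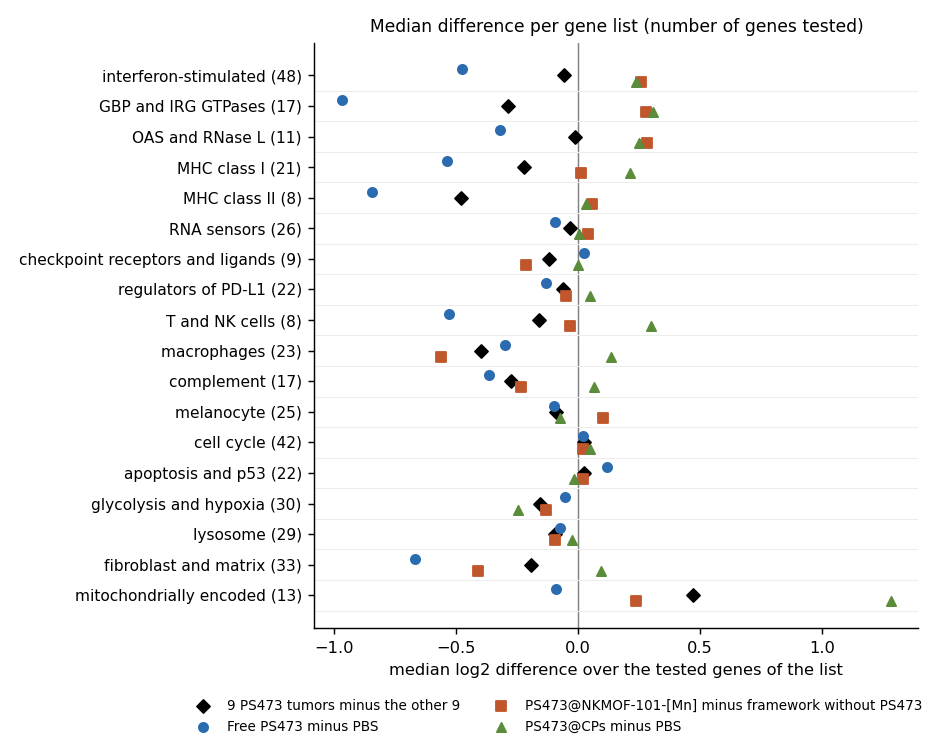
Median log2 difference (horizontal axis) over the tested genes of 18 gene lists (rows, number of genes in parentheses) for the 9-tumor comparison and for PS473 without carrier, in the framework and on CPs. The interferon-stimulated list has medians of -0.06, -0.47, 0.26 and 0.24 in that order, and the macrophage list has -0.40, -0.30, -0.56 and 0.13.

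Genes upstream of interferon differed little over the 9 tumors. Over 26 RNA sensors and adaptors the median was -0.03, with 7 higher and 19 lower and none at an unadjusted p under 0.05. It was -0.10 without carrier (8 of 26 higher) and 0.04 in the framework (16 of 26 higher). The framework median was -0.045 without PS473@NKMOF-101-[Mn] 2. Unc93b1, which carries the endosomal Toll-like receptors, Tlr13, Ikbke and Traf6 had log2 differences of -0.13 to -0.31. Tlr13 averaged just under 1 FPKM with PS473 and passed the filter through the other tumors. The 9 tested genes of DNA sensing had a median of -0.06, with Sting1 at -0.10 ± 0.07 and Tbk1 at -0.06 ± 0.06. Their median was -0.11 without carrier, -0.02 in the framework and 0.07 with CPs. The 22 tested regulators of PD-L1 had a median of -0.06. Among other checkpoint genes, Vsir, which encodes VISTA, was 0.341, 0.815 and 1.69 FPKM against 0.890, 1.65 and 3.02 FPKM, with a difference of -0.46 ± 0.16. It was the single gene of 9 with an unadjusted p under 0.05, beside 1.01% of all genes that were lower.

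Of the genes that the study also measured by other assays, Cxcl10, Isg15 and Isg20 were tested and did not pass, and several were too low to be tested. Cxcl10, a chemokine that draws T cells, was 92.3, 159 and 288 FPKM with PS473 and 140, 158 and 197 FPKM without it, so the medians nearly coincided while the PS473 tumors spread further on both sides. Isg15, a ubiquitin-like interferon-stimulated protein, was 7.41, 28.0 and 77.2 FPKM against 19.2, 31.2 and 44.9 FPKM, with the same wider spread. Their 9-tumor log2 differences were 0.02 ± 0.17 and -0.005 ± 0.29, and that of Isg20 was -0.09 ± 0.20; each of these signs turned under at least 1 scaling. Ifnb1 was at 0 in 7 PS473 tumors and 4 others. Il6, Tnf, Ifng, Cd3e, Cd4 and Cd8a had means of 0.179 to 0.725 FPKM with PS473 and 0.210 to 0.764 FPKM without it, and stayed under the level at which genes were tested. The widest gap in means among them was that of Il6, an inflammatory cytokine, at 0.614 FPKM with PS473 and 0.278 FPKM without it, with individual tumors from 0.0929 to 1.78 FPKM and from 0.0446 to 0.745 FPKM. Gapdh, often used as a reference, was 47.7, 75.0 and 86.1 FPKM against 33.6, 58.5 and 117 FPKM.

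Antigen presentation genes had their lowest medians with Free PS473, a contrast with the framework that rested partly on 1 tumor. MHC class I genes had a median of -0.22 over the 9 tumors (21 genes, 2 higher), -0.53 without carrier, 0.01 in the framework and 0.21 with CPs. The mean log2(FPKM + 1) of the list was 5.59 with the empty framework, 5.78 with M5 and 5.71 with PS473@NKMOF-101-[Mn]. Without PS473@NKMOF-101-[Mn] 2 the framework median was -0.29 with 2 of 21 higher. In that fit 8 of 21 genes were lower in the 9-tumor comparison at an unadjusted p under 0.05, as were 332 of all 12357 genes. The 9-tumor median was -0.11 without PS473@NKMOF-101-[Mn] 3. H2-K1 was 18.9, 50.7 and 126 FPKM with PS473 against 51.6, 69.3 and 77.4 FPKM, and H2-D1, the other classical heavy chain, had a log2 difference of -0.23 ± 0.15. All 8 tested MHC class II genes were lower, with a median of -0.48 and none at an unadjusted p under 0.05. Their medians were -0.84 without carrier, 0.06 in the framework and 0.03 with CPs, and the framework median was -0.44 with 0 of 8 higher without PS473@NKMOF-101-[Mn] 2. The mean log2(FPKM + 1) of class II genes was 4.81 with the empty framework, 5.13 with M5 and 4.96 with PS473@NKMOF-101-[Mn], which was thus below M5. Cd74, the invariant chain, was 25.6, 123 and 518 FPKM against 122, 196 and 344 FPKM, and its difference was -0.68 ± 0.33. H2-Aa was 15.9, 20.2 and 69.4 FPKM with Free PS473 and 58.8, 56.5 and 77.6 FPKM with PBS. In the framework it was 68.6, 191 and 54.3 FPKM with PS473. It was 85.9, 76.6 and 58.6 FPKM with the empty framework and 92.3, 85.8 and 128 FPKM with M5. The value of 191 FPKM was that of PS473@NKMOF-101-[Mn] 2. Leaving out PS473@NKMOF-101-[Mn] 2 brought 6 of 8 class II genes under an unadjusted p of 0.05 (median -0.63). Leaving out Free PS473 3 brought 5 (median -0.71), while without Free PS473 1 the median was -0.31. Over all 12357 genes, fits with 1 tumor left out gave 73 to 332 lower genes at that threshold. T and NK cell genes (8 tested, 1 higher) had a median of -0.16, which was -0.32 without PS473@NKMOF-101-[Mn] 2 and -0.01 without PS473@CPs 1. The median was -0.53 without carrier, -0.03 in the framework and 0.30 with CPs (8 of 8 higher), and Gzmb, Trac and Nkg7 each spanned a wider range with PS473 than without it.

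Most macrophage genes had lower levels over the 9 PS473 tumors, though not with PS473@CPs set against PBS. Of 23 tested genes, 2 were higher and 21 lower over the 9 tumors (median -0.40), and 4 of 23 were lower at an unadjusted p under 0.05 beside 1.01% of all genes. The median was -0.30 without carrier, -0.56 in the framework and 0.13 with CPs, where 18 of 23 genes were higher. The mean log2(FPKM + 1) of the list was 4.18 with the empty framework, 3.86 with M5 and 3.65 with PBS. It was 3.74 with PS473@CPs, 3.53 with PS473@NKMOF-101-[Mn] and 3.34 with Free PS473. The median without carrier was 0.01 when Free PS473 2 was left out and -0.83 when Free PS473 3 was. Cd68, a lysosomal glycoprotein of macrophages, was 9.60, 18.5 and 29.5 FPKM with PS473 and 17.7, 28.8 and 47.0 FPKM without it (log2 difference -0.56 ± 0.20). Adgre1, which encodes F4/80, was 1.29, 3.22 and 8.36 FPKM against 2.42, 6.05 and 13.7 FPKM (-0.61 ± 0.25). C1qc, a chain of complement C1q, and Csf1r, the receptor for macrophage colony-stimulating factor, had differences of -0.62 ± 0.27 and -0.60 ± 0.26. For each of the 4 genes the ranges overlapped and the lowest values were those of Free PS473 2. In bulk tumor RNA, fewer macrophages and less of these transcripts per macrophage cannot be told apart.

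Other genes of myeloid cells followed. Itgam, the CD11b chain, was 1.45, 3.67 and 7.495 FPKM against 3.91, 7.53 and 15.4 FPKM, with a difference of -0.79 ± 0.30. The 17 tested complement genes had a median of -0.27, or -0.15 without PS473@CPs 1. Of the 17, 16 were lower, 2 of them at an unadjusted p under 0.05, beside 1.01% of all genes. Those 2 were Itgam and C1qc, both given above, so they add no separate genes. Slc11a1, the phagosomal metal transporter of macrophages, and Hmox1, which breaks down heme, differed by -0.58 ± 0.21 and -0.72 ± 0.28. They were the 2 of 20 metal-handling genes at an unadjusted p under 0.05, beside 1.01% of all genes that were lower. That list had a median of -0.05. The 5 leukocyte markers Ptprc, Cd68, Adgre1, Csf1r and Cd3e had no value at 0. Their sum was 13.7, 27.7 and 50.6 FPKM in the lowest, median and highest PS473 tumor, and 27.1, 45.9 and 82.2 FPKM without it. It was 27.1, 42.6 and 33.1 FPKM with PBS, 82.2, 45.9 and 62.4 FPKM with the empty framework, and 34.4, 68.5 and 50.5 FPKM with M5. With PS473 it was 21.5, 13.7 and 50.6 FPKM free, 24.9, 40.6 and 39.8 FPKM on CPs, and 27.7, 46.8 and 26.6 FPKM in the framework. The highest sums without PS473 were thus those of framework tumors. The keratinocyte markers Krt5, Krt14 and Krt10 summed to between 0.00432 and 2646 FPKM with PS473 (median 7.77) and between 0 and 2595 FPKM without it (median 72.0), and each of them was at 0 in some tumors. Leaving out 1 tumor gave 9-tumor macrophage medians from -0.60 (without Free PS473 3, 14 of 23 genes lower at an unadjusted p under 0.05) to -0.27 (without Free PS473 2, 1 of 23). The count was also 1 without PBS 2, NKMOF-101-[Mn] 1 or M5@NKMOF-101-[Mn] 2. Over all 12357 genes, the lower count in fits with 1 tumor left out was 73 to 332. The part of the leukocyte and keratinocyte sums in these differences was not tested. A score of skin genes, not the keratinocyte sum, was fitted as a covariate, with gene counts given below.

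**Figure D4:**
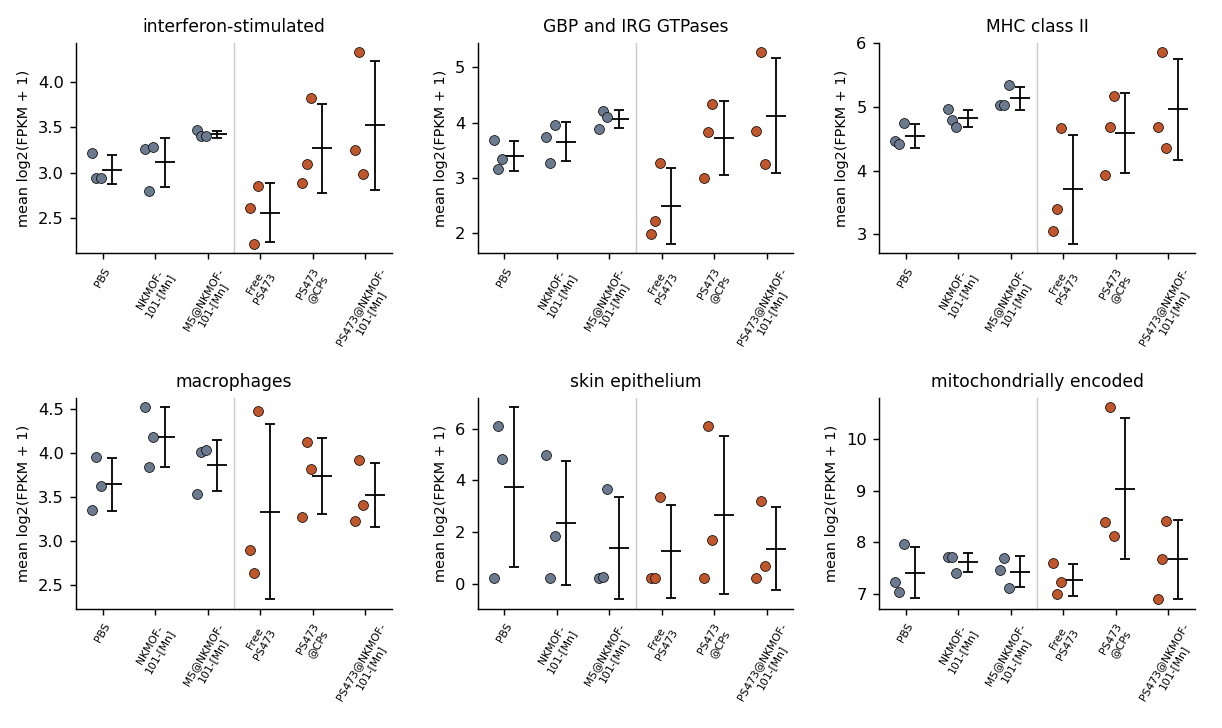
Mean log2(FPKM + 1) of 6 gene lists (panels, vertical axis) in each of the 18 tumors by treatment group, tumors without PS473 in grey and with PS473 in orange; bars are the group mean ± SD of 3. PS473@NKMOF-101-[Mn] 2 is highest for interferon-stimulated genes at 4.33 and for GBP and IRG GTPases at 5.28, and PS473@CPs 2 is highest for mitochondrially encoded genes at 10.62.

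Genes of the tumor cells themselves were close to level. The 25 melanocyte genes had a median of -0.09. By carrier it was -0.10 without carrier (4 of 25 higher), 0.10 in the framework (20 of 25 higher) and -0.08 with CPs (7 of 25 higher). Tyrp1, a pigment enzyme, was 702, 1159 and 1315 FPKM with PS473 and 964, 1185 and 1304 FPKM without it. The 42 cell cycle genes had a median of 0.03, with Mcm7 at 0.12 ± 0.08 and Cenpe at -0.13 ± 0.08. Glycolysis and hypoxia genes were lower for 26 of 30 members (median -0.16, or -0.21 without PBS 3 and -0.09 without PBS 1). Of the 30, 3 were lower at an unadjusted p under 0.05, beside 1.01% of all genes. Those were P4ha1, Vegfa and Adm, all induced by low oxygen. Vegfa, the main angiogenic factor, was 29.5, 42.1 and 64.5 FPKM with PS473 and 41.5, 58.7 and 79.9 FPKM without it, an overlap with a log2 difference of -0.39 ± 0.17. The median of the 30 genes was -0.05 without carrier (10 of 30 higher), -0.13 in the framework (12 of 30 higher) and -0.25 with CPs (0 of 30 higher).

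Stress and death programs gave mixed signs. In the apoptosis and p53 list (22 genes, median 0.02), the p53 targets Trp53inp1 and Ccng1 were higher by 0.39 ± 0.15 and 0.24 ± 0.10. They were the 2 of 22 genes with an unadjusted p under 0.05, beside 0.825% of all genes that were higher. Trp53inp1 was 4.59, 6.75 and 11.9 FPKM against 2.73, 5.39 and 7.31 FPKM. Pycard, the inflammasome adaptor ASC, was 4.66, 7.61 and 13.9 FPKM against 8.15, 10.2 and 15.0 FPKM. It was the single gene of 12 in pyroptosis and necroptosis at that threshold, beside 1.01% of all genes that were lower. Cryab, a small heat shock protein, differed by 0.24 ± 0.09 in a list with a median of 0.03 (14 genes). The unfolded protein (22 genes), glutathione and ferroptosis (24 genes) and RNA decay (37 genes) lists had medians of -0.03, -0.02 and -0.02. The unfolded protein median was 0.12 without carrier (19 of 22 higher) and -0.13 in the framework (1 of 22 higher). For the difference of effects, 3 of 22 genes had an unadjusted p under 0.05, beside 1.37% of all genes. Of 29 lysosomal and endosomal genes (median -0.09), 3 were lower at an unadjusted p under 0.05, Psap and Eea1 among them, beside 1.01% of all genes. Immediate early genes (23 tested) had a median of -0.09 over the 9 tumors but -0.54 without carrier.

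Mitochondrially encoded genes were higher for 13 of 13 members with a median of 0.47, and this came mainly from CPs. The median was -0.09 without carrier, 0.24 in the framework and 1.28 with CPs. Cytochrome b (CYTB) was 4076, 10790 and 3186 FPKM with PS473@CPs, 2766, 2277 and 2055 FPKM with Free PS473 and 1894, 2646 and 5249 FPKM with PS473@NKMOF-101-[Mn]. The 9 tumors without PS473 lay between 1742 and 3339 FPKM, so the PS473 tumors above them were 2 CPs tumors and 1 framework tumor. Without PS473@CPs 2 the 9-tumor median was 0.23 and the CPs median 0.66, and without PS473@NKMOF-101-[Mn] 3 the framework median was -0.20. ND4L, a subunit of respiratory complex I, was the single gene of the 13 at an unadjusted p under 0.05, beside 0.825% of all genes that were higher. It was 60.9, 185 and 27.9 FPKM with PS473@CPs against 6.85 to 35.5 FPKM without PS473. Because none of these 18 tumors received CPs alone, the polymer and PS473 on it cannot be told apart.

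Skin and globin genes varied most between tumors of a group among the 40 lists. All 31 tested skin genes were lower with a median of -0.71 and none at an unadjusted p under 0.05, and the median was -1.31 without PBS 1 and -0.28 without PBS 2. Krt6b, a keratin of activated epidermis, ran from 0 to 574 FPKM with PS473 and from 0 to 1000.5 FPKM without it. Globin and heme genes (6 tested) had a median of -0.84, which combined 0.67 without carrier (6 of 6 higher), -0.70 in the framework and -3.21 with CPs (0 of 6 higher in each). Hbb-bs ran from 17.3 to 3132 FPKM and from 129.7 to 6668 FPKM. Without PS473@NKMOF-101-[Mn] 2 that median was -0.13, without PBS 1 it was -0.45 and without PS473@NKMOF-101-[Mn] 1 it was -1.27. Fibroblast and matrix genes (33 tested, 31 lower) had a median of -0.19, which was -0.39 without Free PS473 3 and -0.016 without PS473@CPs 1. The endothelial list (14 genes) had a median of 0.04, which was -0.12 without PS473@CPs 2 and 0.14 without PS473@CPs 1, and the ribosomal protein list (82 genes) had 0.03, which was -0.036 without Free PS473 3 and 0.11 without PBS 1. None of these lists had a gene at an unadjusted p under 0.05.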

How the data were processed

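The authors deposited 1 table of FPKM for 41079 genes (31286 above 0) with a gene length each. Reads were aligned to GRCm39 per the submitters' processing notes, and the aligner, counting tool and handling of shared reads are not given in the sources used here. Tumors were grouped by their titles and treatment text, and 0 columns belonged to no listed tumor. The FPKM did not resolve into whole fragments (within 0.02) for many low values, so no count model was fitted. The deposited FPKM were taken as log2(FPKM + 1), and 12357 genes averaging 1 FPKM or more over the tumors were kept. The pseudocount makes differences of low genes smaller than their true size. One mean per group was fitted with limma 3.58.1 in R 4.3.3 (trend, 12 residual degrees of freedom), and the mean of the 3 PS473 groups was set against the mean of the other 3, with carrier as a term in a second fit and the effect in the framework against that without carrier in another. Benjamini-Hochberg adjustment ran over 12357 genes, and procedures were tested on simulated data. Differences are given with standard errors from these fits, and unadjusted p-values serve as descriptions.

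Genes named are Cd274, those the study measured by other assays, the 10 with the smallest p in each direction, up to 4 per list, and 5 per direction for carrier and for the difference of effects. Those past 2-fold, with 7 of 9 tumors beyond the others, or added to show a pattern were chosen after their values were seen. There were 41 lists, 40 with a tested gene; the comparison and the lists were chosen with earlier results of these data known. Sequences come from the study's supplementary tables and the site's position from GENCODE M21. Figures used Python 3.11.15 with matplotlib 3.10.9. Alternatives were another pseudocount, other filters and scalings, no trend, tumor weights, a replicate block, a 2-group fit, left-out tumors and groups, and, chosen after seeing the data, skin score or depth as a covariate. Some items are not reported here.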

Additional observations from a re-analysis of the deposited data

Results flagged for a closer look

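For 65 values (genes and mean log2(FPKM + 1) of lists), each set of 9 tumors was searched for a single tumor farther from its neighbour than Dixon's 95% critical value for 9 allows. Of 130 sets searched, 7 held one, and chance gives about 1 in 20. Among PS473 tumors, PS473@CPs 2 was highest for mitochondrially encoded genes at 10.62 (next 8.42) and for heat shock genes at 6.35 (next 5.89). PS473@NKMOF-101-[Mn] 3 was lowest for small nucleolar RNAs at 1.61 (next 2.72) and for RNA decay genes at 3.33 (next 3.49). Among tumors without PS473, NKMOF-101-[Mn] 3 was highest for B and plasma cell genes at 4.24 (next 2.84), PBS 1 for ribosomal protein genes at 9.11 (next 8.67), and M5@NKMOF-101-[Mn] 3 was lowest for the short gene Gm25820 at 1.25 (next 1.74).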

How the results depend on the processing

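The count of 0 genes at an adjusted p under 0.05 held in all fits but the one with no filter on low values, which called 1 of 31286 genes, Gm23749 (above 0 in 3 tumors), both over the 9 tumors and for the difference of effects. Counts at an unadjusted p under 0.05 depended on the processing. Higher and lower genes over the 9 tumors, with carrier and for the difference of effects were 337 and 446, 439 and 298, and 249 and 523 with no filter, and 169 and 242, 185 and 186, and 87 and 235 with a filter at 0.1 FPKM. With tumor weights, whose estimation did not converge and gave Free PS473 1 a weight of 17.1, they were 581 and 759, 746 and 1002, and 570 and 904. Quantile normalization moved the carrier count to 187 higher and the difference count to 56 higher. Upper-quartile scaling gave 82 lower over the 9 tumors, 192 higher with carrier, and 73 and 79 for the difference. Without the M5 tumors the 9-tumor counts were 49 and 71. The skin score as a covariate gave 248 lower for the difference, and depth as a covariate 196 higher over the 9 tumors; neither called a gene. The scalings moved the median of all genes by 0.02 and 0.03.

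Leaving out 1 tumor gave 48 (PS473@CPs 1) to 181 (PBS 1) higher and 73 (M5@NKMOF-101-[Mn] 2) to 332 (PS473@NKMOF-101-[Mn] 2) lower genes over the 9 tumors, 51 (PBS 2) to 181 (PS473@NKMOF-101-[Mn] 3) higher and 38 (without PS473@NKMOF-101-[Mn] 3) to 351 (without PS473@NKMOF-101-[Mn] 2) lower with carrier, and 14 (PS473@NKMOF-101-[Mn] 2) to 151 (PS473@NKMOF-101-[Mn] 3) and 84 (Free PS473 1) to 270 (Free PS473 2) for the difference. The Cd274 difference stayed negative, at -0.36 to -0.09 in limma and -0.35 to -0.14 in the exact permutation test.

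Signs of genes near 0 turned. Cxcl10 was -0.0072 after quantile normalization, -0.023 with tumor weights, -0.15 with carrier, -0.20 without CPs and -0.00036 with depth, and -0.12 to 0.15 with 1 tumor left out. Isg20 was 0.039, 0.24, 0.036 and 0.063 in the first 4 of these settings, and -0.18 to 0.043 with 1 tumor left out. Isg15 was 0.033 with upper-quartile scaling, 0.26 with weights, 0.0099 with carrier, 0.11 without M5, 0.011 with the skin score and 0.12 with depth, and -0.16 to 0.18 with 1 tumor left out. Gapdh was -0.12 without M5, and -0.010 (without PBS 3) to 0.22 (without PBS 1) with 1 tumor left out.

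A replicate block gave 84 higher and 119 lower genes over the 9 tumors and called 0. Replicate numbers pair no samples by the labels, and 18 of 45 same-numbered pairs of tumors had deviations correlated above 0.1 (median r -0.02). Depth and 3 tumors per treatment limit what could be seen for genes under 1 FPKM, such as Ifnb1 and Ifng.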

Other observations

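TrnK, a mitochondrial tRNA gene of 65 bases, was 97.1 FPKM in PS473@CPs 1, 91.3 FPKM in PS473@NKMOF-101-[Mn] 3 and 6.58 FPKM in PS473@CPs 2, and between 0.191 and 1.11 FPKM in the other tumors. All 3 high tumors had received PS473, and TrnK was named after its values were seen. TrnK averaged under 1 FPKM without PS473. It therefore passed the filter only through the PS473 tumors and gives no support for a link to PS473. Its 9-tumor log2 difference was 1.57 ± 0.79, with an unadjusted limma p of 0.0670. The mitochondrial gene ATP8 had its 2 highest values in PS473@CPs tumors 2 and 3, at 1179 and 155 FPKM, against 18.2 to 87.9 FPKM in the other 16.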
